A study of Homo sapiens with 9 samples.

Results

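The DLX and MSX homeobox genes are the 8 members DLX1, DLX2, DLX3, DLX4, DLX5, DLX6, MSX1 and MSX2, taken as every probe set whose single gene symbol is one of these names. Each gene had 1 such probe set, so that 8 of 33297 probe sets, and 8 of 18417 genes, are described. All samples came from H9, an established human embryonic stem cell line, in a derivative that carries a TCF7L1 transgene. TCF7L1, one of the TCF/LEF DNA-binding proteins, acts chiefly as a repressor of Wnt target genes, and doxycycline was used to induce it. The 3 groups, of 3 arrays each, were untreated cells in the pluripotency medium mTeSR1, cells given a medium for primitive streak differentiation (PS medium) over 48 h, and cells given PS medium together with doxycycline at 1 ug/ml over 48 h. All 3 groups carry the transgene. No group received doxycycline without PS medium or without the transgene, so the effect of doxycycline itself and that of TCF7L1 cannot be told apart. The labels name no clone. They do not tell whether replicates were grown apart, and p-values therefore reflect the spread among these arrays, part of which may be technical.

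DLX and MSX proteins are homeodomain transcription factors, named after the fly genes Distal-less and muscle segment homeobox. Bone morphogenetic proteins (BMPs) are secreted ligands that act through receptor kinases and SMAD proteins, and DLX and MSX genes are among the genes that BMP signalling commonly raises in ectoderm, amnion, neural crest, limb and heart. In the human genome the DLX genes lie as neighbouring pairs. In the RefSeq gene listing DLX1 was next to DLX2 on chromosome 2, DLX4 next to DLX3 on chromosome 17, and DLX6 next to DLX5 on chromosome 7. MSX1, on chromosome 4, and MSX2, on chromosome 5, had no such partner.

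The sequences just upstream of 3 members are shown to set 2 genes that rose with doxycycline, MSX2 and DLX6, beside DLX1, which did not pass the test. Each is the 250 bases before the RefSeq start on build GRCh38.p14, written 5′ to 3′. Capitals mark matches on either strand to CTTTGAA or CTTTGAT, the letters TCF/LEF factors commonly bind, to GGCGCC, a GC-rich element that BMP SMADs can bind, and to TAATTA, a homeodomain core.
MSX2 promoter, chr5:174724332-174724581, + strand: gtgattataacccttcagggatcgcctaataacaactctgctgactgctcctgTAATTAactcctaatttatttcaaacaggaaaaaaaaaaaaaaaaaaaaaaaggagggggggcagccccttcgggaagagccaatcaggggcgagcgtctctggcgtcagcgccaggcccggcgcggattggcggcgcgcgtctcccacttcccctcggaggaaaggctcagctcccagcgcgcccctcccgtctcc
DLX6 promoter, chr7:97005303-97005552, + strand: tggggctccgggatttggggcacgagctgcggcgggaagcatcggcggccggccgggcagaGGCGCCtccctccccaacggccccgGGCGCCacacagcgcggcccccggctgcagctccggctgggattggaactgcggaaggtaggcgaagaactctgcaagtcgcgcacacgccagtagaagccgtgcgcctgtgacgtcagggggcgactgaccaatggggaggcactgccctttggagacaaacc
DLX1 promoter, chr2:172085257-172085506, + strand: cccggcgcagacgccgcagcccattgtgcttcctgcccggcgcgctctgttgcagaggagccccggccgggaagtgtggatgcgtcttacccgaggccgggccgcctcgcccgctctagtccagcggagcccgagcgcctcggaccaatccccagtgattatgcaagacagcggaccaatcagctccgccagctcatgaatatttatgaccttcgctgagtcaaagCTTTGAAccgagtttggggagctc
The MSX2 window held 1 TAATTA, the DLX6 window 2 GGCGCC, and the DLX1 window 1 CTTTGAA. The windows of DLX2 and MSX1 held none of the 4 motifs. Over 35116 promoters of the same length, 4.35% held TAATTA, 16.4% GGCGCC, 3.8% CTTTGAA and 2.26% CTTTGAT. A match describes letters only, and no binding was measured here. DLX3, DLX4 and DLX5 had no entry in the promoter table.

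Values below are the deposited probe set intensities, on a linear scale, and levels of different probe sets are not compared. Array medians ran from 200.4 to 216 in intensity, and the number of arrays limits the precision. Differences are in log2(intensity + 16) after quantile normalization of the 9 arrays, each with its standard error (SE) and the adjusted p of limma (Benjamini-Hochberg over 18417 genes). A gene is said to have risen or fallen at an adjusted p under 0.05. The PS label was checked on marker genes. In PS medium all 7 genes of primitive streak rose, and 6 of 8 pluripotent cell markers fell, with 0 rising. Over all genes 14.2% rose and 15.7% fell there. With doxycycline all 7 streak genes fell against PS medium (8.44% of all genes fell). Against untreated cells 5 of 7 rose with doxycycline (15.3% of all genes rose). TCF7L1 itself read 3718, 3878 and 3572 on untreated arrays, 1275, 1542 and 1611 in PS medium, and 13100.2, 12433 and 2699 with doxycycline. It rose with doxycycline against PS medium (2.39 ± 0.47, SE, adjusted p = 0.00464). Against untreated cells its arrays overlapped and the difference did not pass (1.04 ± 0.47, adjusted p = 0.124). The overlap came from doxycycline replicate 3, which lay below every untreated array (log2 11.42). Doxycycline replicates 1 and 2 (13.70 and 13.61) lay above every untreated array (11.82 to 11.94). For the members, calls that change without doxycycline replicate 3 are therefore also given. No fit without it is given for TCF7L1.

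**Figure D1:**
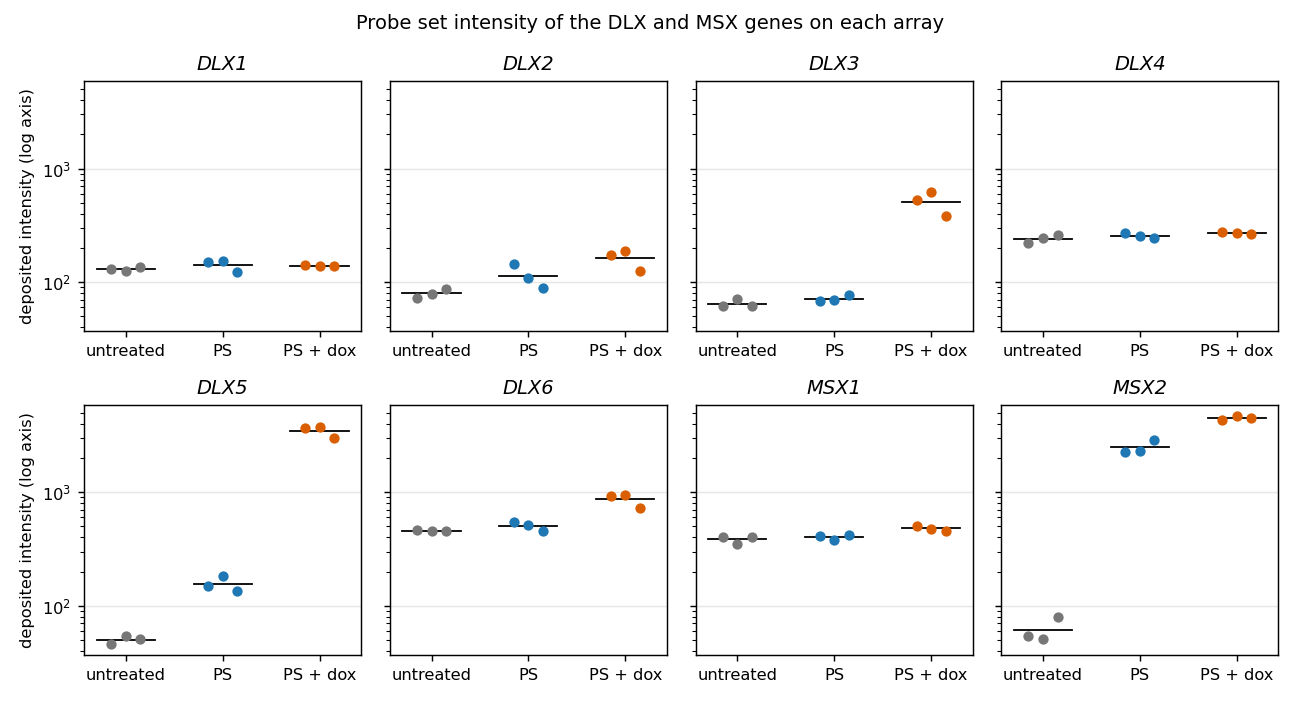
Deposited probe set intensity (log axis) of each DLX and MSX gene on the 3 arrays of each group; points are arrays and the line is the mean of the group. DLX5 reached 2998 to 3745 with doxycycline against 136 to 184 in PS medium, and MSX2 was already at 2246 to 2910 in PS medium.

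MSX2, a repressor-type homeobox factor and a standard readout of BMP signalling, responded mainly to the medium. It read 53.6, 50.5 and 78.8 on untreated arrays, 2246, 2322 and 2910 in PS medium, and 4370, 4687 and 4553 with doxycycline. The 3 groups did not overlap, in the order untreated, PS medium, PS medium with doxycycline. In PS medium it rose 33.0-fold over untreated cells (log2 5.04 ± 0.13, SE, n = 3 per group, adjusted p = 1.28e-09) and was the gene with rank 20 by difference among 18417. It was dim in untreated cells, at percentile 13.2 of all genes, and with an offset of 64 its rise came to 20.4-fold. With doxycycline it rose another 1.87-fold over PS medium alone (0.90 ± 0.13, adjusted p = 0.000661), to 61.6 times untreated cells, or 37.8 times with an offset of 64.

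DLX5, an activator used in limb, craniofacial and placental development, responded mainly with doxycycline. It read 46.4, 53.6 and 50.5 on untreated arrays, 148, 184 and 136 in PS medium, and 3657, 3745 and 2998 with doxycycline. Again no group overlapped another. It moved from percentile 10.6 of all genes in untreated cells to 31.5 in PS medium and 97.1 with doxycycline. The rise in PS medium was 2.65-fold (1.41 ± 0.13, SE, n = 3 per group, adjusted p = 1.54e-05), and the further rise with doxycycline was 20.3-fold (4.34 ± 0.13, adjusted p = 2.09e-08), with rank 5 among all genes. Over 17 alternative fits the first rise ran from 0.96 to 1.65 on the log2 scale, and the second from 4.01 to 4.47. Against untreated cells DLX5 with doxycycline was 53.8-fold higher, or 31.4-fold with an offset of 64.

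DLX6, the neighbour of DLX5, moved in the same direction by a smaller step. It read 465, 458 and 452 on untreated arrays, 543, 517 and 451 in PS medium, and 930, 952 and 727 with doxycycline. Untreated and PS arrays overlapped, and all doxycycline arrays lay above both. The rise with doxycycline was 1.68-fold (0.75 ± 0.11, SE, n = 3 per group, adjusted p = 0.000748), whereas PS medium and untreated cells differed by 0.12 ± 0.11 (adjusted p = 0.452, 95% interval -0.12 to 0.37). DLX6-AS1, an antisense RNA at that locus, is not analysed here.

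DLX3, a factor of epidermis, placenta and the neural plate border, was low in both groups without doxycycline. It read 60.9, 70.6 and 61.6 on untreated arrays, 68.3, 69.2 and 76.5 in PS medium, and 525, 626 and 381 with doxycycline. The first pair of groups overlapped, and differed by 0.15 ± 0.15 (adjusted p = 0.521, 95% interval -0.18 to 0.48). With doxycycline it rose 5.84-fold over PS medium (2.55 ± 0.15, SE, n = 3 per group, adjusted p = 2.69e-06), from percentile 16.4 of all genes to 58.2. DLX3 was thus dim in PS medium too, and over 17 alternative fits this rise ran from 2.05 to 2.77 on the log2 scale. DLX4, its neighbour, read 220 to 257 on untreated arrays, 244 to 271 in PS medium and 266 to 276 with doxycycline. No comparison of DLX4 passed the test, and its difference with doxycycline against PS medium was 0.07 ± 0.08 (adjusted p = 0.629, 95% interval -0.11 to 0.26).

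DLX2, which with DLX1 is known for its role in forebrain interneurons and branchial arches, read 72.9, 77.8 and 87.5 on untreated arrays, 144, 109 and 88.8 in PS medium, and 174, 187 and 126 with doxycycline. Doxycycline and PS arrays overlapped, while untreated arrays lay below both. It rose 1.89-fold with doxycycline against untreated cells (0.92 ± 0.17, SE, n = 3 per group, adjusted p = 0.00177). The steps missed the threshold, at 0.46 ± 0.17 both for PS medium against untreated cells (adjusted p = 0.0613) and for doxycycline against PS medium (adjusted p = 0.0874). The first passed without PS replicate 3 (0.59, adjusted p = 0.0237), doxycycline replicate 2 (0.0466) or doxycycline replicate 3 (0.0269). It also passed when only those groups were fitted (0.0356) and with the replicate number as a block. The second passed without PS replicate 1 (0.60, adjusted p = 0.0412) or doxycycline replicate 3 (0.63, 0.0182). DLX1 read 124 to 136 on untreated arrays, 122 to 152 in PS medium and 139 to 140.0 with doxycycline. DLX1 passed no test, and differed by -0.01 ± 0.09 between doxycycline and PS medium (adjusted p = 0.980, 95% interval -0.20 to 0.19).

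MSX1, the relative of MSX2, read 402, 352 and 404 on untreated arrays, 410, 377 and 422 in PS medium, and 507, 475 and 454 with doxycycline. The doxycycline arrays lay above all others, by a small step. Against untreated cells MSX1 rose 1.23-fold (0.29 ± 0.08, SE, n = 3 per group, adjusted p = 0.0190), a call lost without untreated replicate 2 (0.23, adjusted p = 0.0833) or doxycycline replicate 1 (0.26, 0.0707). Against PS medium it differed by 0.24 ± 0.08, which missed the threshold (adjusted p = 0.0738) and passed with the replicate number as a block (adjusted p = 0.0332). In PS medium against untreated cells it differed by 0.06 ± 0.08 (adjusted p = 0.666).

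**Figure D2:**
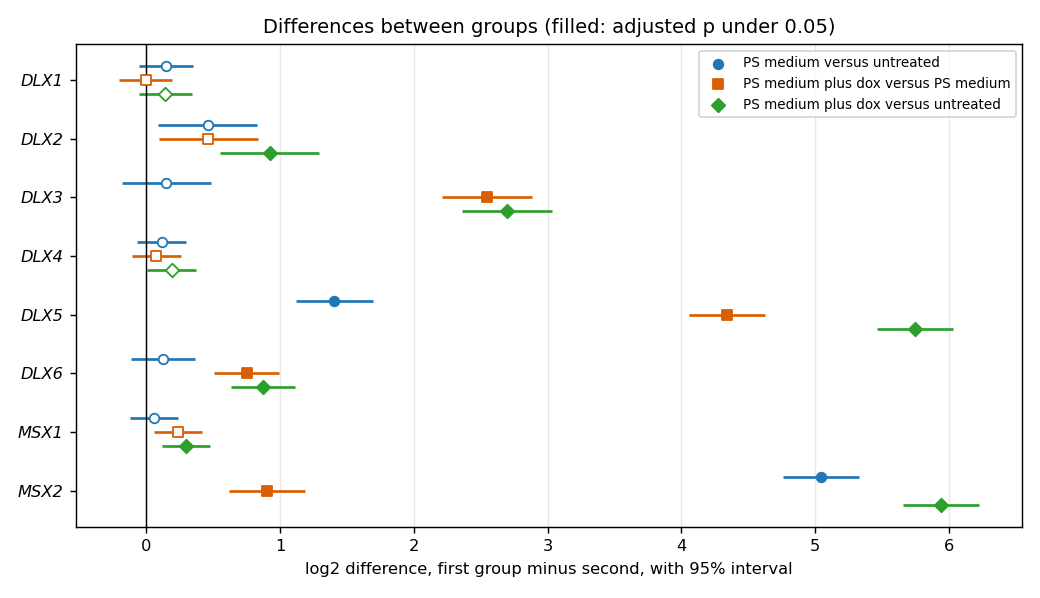
Log2 difference (first group minus second) of each gene in the 3 comparisons with its 95% interval from limma; filled symbols passed an adjusted p of 0.05. MSX2 stands out in PS medium against untreated cells at 5.04, and DLX5 (4.34) and DLX3 (2.55) with doxycycline against PS medium.

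Counted together, 2 of 8 members rose in PS medium against untreated cells, 4 of 8 rose with doxycycline against PS medium, and 6 of 8 rose with doxycycline against untreated cells. Over all genes tested, 14.2% rose and 15.7% fell in the first comparison, 8.91% and 8.44% in the second, and 15.3% and 14.9% in the third. These shares are also the background for the counts of every gene list below. The arrays of the groups compared did not overlap for 3, 5 and 8 of the 8 members, where the share over all genes was 43.3%, 30.9% and 45%. No member fell by limma in any of the 3 comparisons, and 0 fell at an unadjusted p under 0.05. The median log2 difference of the members was 0.15, 0.61 and 0.90, beside -0.01, 0.00 and 0.00 over all genes. The 3 comparisons share arrays, so their counts are not separate evidence, and the genes were picked with earlier results of these data known. Fewer cells of a type and less RNA per cell cannot be told apart in such bulk RNA.

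Within the neighbouring pairs the members differed in size of response. With doxycycline against PS medium DLX5 and DLX6 both rose, by 4.34 and 0.75 on the log2 scale. In the other pairs DLX3 rose and DLX4 did not pass, and neither DLX1 nor DLX2 passed. Of the other genes beside the members, ITGA3, a laminin-binding integrin subunit next to DLX3, rose by 1.08 ± 0.14 (SE, adjusted p = 0.000382), and ITGA6, the integrin subunit next to DLX2, by 0.57 ± 0.08 (adjusted p = 0.000786). Both had fallen in PS medium against untreated cells (ITGA3 -1.20, ITGA6 -1.95). Doxycycline and untreated cells did not differ past the threshold for ITGA3 (-0.12, adjusted p = 0.570), and ITGA6 stayed below untreated cells (-1.39). METAP1D, a mitochondrial aminopeptidase next to DLX1, rose by 0.51 ± 0.15 (adjusted p = 0.0419), a call lost in a fit of those groups alone (0.0686) and when any 1 of 6 of the 9 arrays was left out (0.0566 to 0.137). Of the 10 adjacent protein-coding genes that are not members, 9 were measured. With doxycycline 0 of these rose and 3 fell against untreated cells, while 3 rose and 1 fell against PS medium. The gene that fell was CYTL1, next to MSX1 (-0.31 ± 0.09, adjusted p = 0.0485), named after its value was seen. That call was lost on values as deposited (adjusted p = 0.0523), with an offset of 64 (0.0588), in a fit of those groups alone (0.0769) and when any 1 of 7 of the 9 arrays was left out (0.0604 to 0.147). Another list of 10 measured genes around the members, not all of them adjacent, had 3 that rose and 0 that fell by limma, with 3 and 3 at an unadjusted p under 0.05.

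The doxycycline array with low TCF7L1 was compared with the other two. On that array TCF7L1 was 0.90 above the PS mean on the log2 scale, against 3.18 and 3.09 on arrays 1 and 2. DLX5 was 4.13 above the PS mean there, against 4.44 and 4.45. DLX3 was 2.18 above it, against 2.61 and 2.85, and DLX6 0.52, against 0.86 and 0.87. That array was the lowest of the 3 for 7 of the 8 members, which include DLX1 and DLX4, genes that passed no comparison, and for 34.4% of all genes. MSX2 (0.90, against 0.86 and 0.95) lay between the others there. With 3 arrays no relation to the TCF7L1 level was tested.

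**Figure D3:**
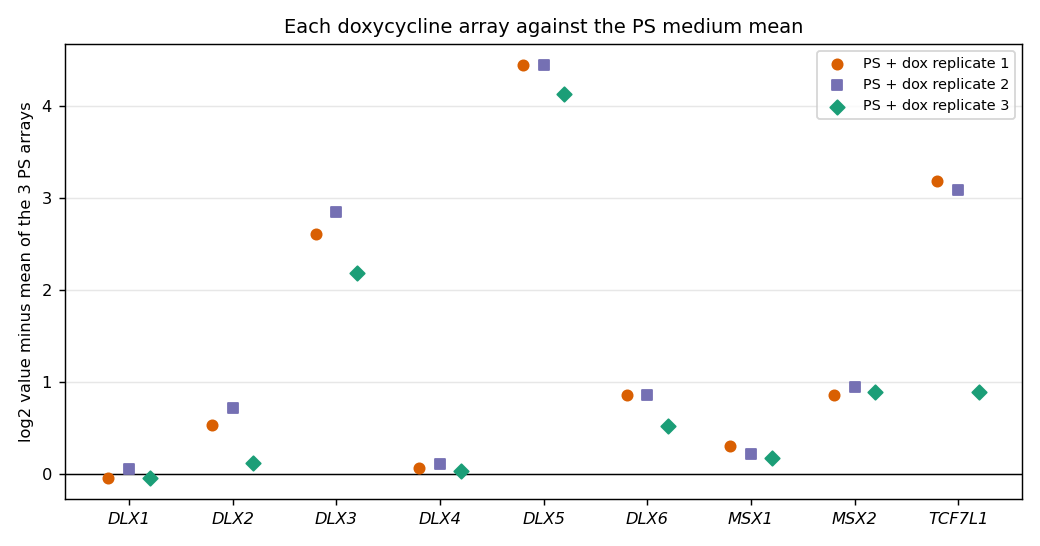
Normalized log2 value of each gene on each PS medium plus doxycycline array, minus the mean of the 3 PS arrays. TCF7L1 is 0.90 above the PS mean on replicate 3 against 3.18 and 3.09, while DLX5 is at 4.13 against 4.44 and 4.45.

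The other genes of the BMP pathway were taken by role. Among ligands, BMP2 rose by 4.06 ± 0.22 (SE, adjusted p = 3.90e-07) and BMP4 by 3.16 ± 0.34 in PS medium, and BMP6 fell by 0.35, a call lost without untreated replicate 3 (adjusted p = 0.05001), with 2 of 9 rising and 1 falling. With doxycycline BMP2 fell by 1.95 (SE 0.22), and BMP7 rose by 0.83, GDF6 by 0.45 and BMP8A by 0.35. The BMP8A call was lost in a fit of those groups alone (adjusted p = 0.0568) and without PS replicate 2 (0.0603), PS replicate 3 (0.0665) or doxycycline replicate 1 (0.0918). Of 8 receptors and co-receptors, 4 rose and 1 fell in PS medium, led by BMPR2, the type II receptor, at 1.65, while RGMA, a co-receptor, was the one that fell (-1.28). With doxycycline 0 rose and 1 fell by limma, with 1 rising and 3 falling at an unadjusted p under 0.05. The one that fell was BMPR2 (-0.34, adjusted p = 0.0268), a call lost in a fit of those groups alone (0.0650) and without PS replicate 3 (0.0557), doxycycline replicate 2 (0.0838) or doxycycline replicate 3 (0.0717). Of the SMADs, 3 of 4 rose in PS medium, SMAD9 by 3.15, and none passed with doxycycline (0 of 4 by limma, 0 unadjusted).

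Feedback and target genes of the pathway rose in 13 of 14 cases in PS medium, with a median of 2.62. HAND1 (6.73) and TBX3 (6.36), both factors of early heart and extraembryonic tissue, and TFAP2A (5.28), an AP-2 factor of surface ectoderm, were among them. HAND1 read 6.55 to 40.6 and TBX3 5.94 to 15.7 on untreated arrays, near or below the offset of 16, so the size of their differences is set in part by the offset. With an offset of 64 the differences came to 5.44 for HAND1, 4.87 for TBX3 and 4.99 for TFAP2A. With doxycycline 8 of 14 rose over PS medium and 1 fell. ID4, an inhibitor of DNA binding, rose by 1.54 ± 0.11, HEY1 by 1.51 ± 0.15, and TFAP2A by 1.17 ± 0.15. The gene that fell was SMAD6, an inhibitory SMAD (-1.09 ± 0.15, adjusted p = 0.000565), named after its value was seen. Among 10 antagonists and modulators, 5 rose and 3 fell with doxycycline, with NOG, which binds BMPs, at 2.68 and BMPER, a BMP-binding protein, at -1.74. Of the 45 measured pathway genes, 27 were higher and 5 lower in PS medium, where the background was 14.2% higher and 15.7% lower. In the comparison of doxycycline with PS medium 16 were higher and 6 lower, where the background was 8.91% higher and 8.44% lower.

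The homeobox genes of the NKL class, to which DLX and MSX belong, were listed as their closest relatives. Of 36 measured, 6 rose and 2 fell in PS medium, where 14.2% of all genes rose and 15.7% fell. The largest differences were those of HHEX, an endoderm and blood factor, at 1.97 ± 0.51, and EMX1, a forebrain factor, at -0.92. HHEX read 931, 5045 and 5448 in PS medium, against 721 to 760 on untreated arrays, so that PS replicate 1 stood apart. Without that array the HHEX rise was 2.79. With doxycycline 0 rose by limma (2 at an unadjusted p under 0.05) and 2 fell, HHEX by 1.90 and VENTX by 0.54 on the log2 scale. HHEX read 764 to 809 with doxycycline, and its fall moved to -2.72 without PS replicate 1 and did not pass without PS replicate 2 (-1.52, adjusted p = 0.0857) or 3 (-1.46, 0.0780), any 1 doxycycline array (0.0529 to 0.0772), or in a fit of those groups alone (0.0692). That count of 2 became 1 without PS replicate 2 or doxycycline replicate 3, and 0 without doxycycline replicate 1 or 2. Their median with doxycycline was -0.04, beside 0.61 for the 8 DLX and MSX genes. No test of that difference between lists was made.

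**Figure D4:**
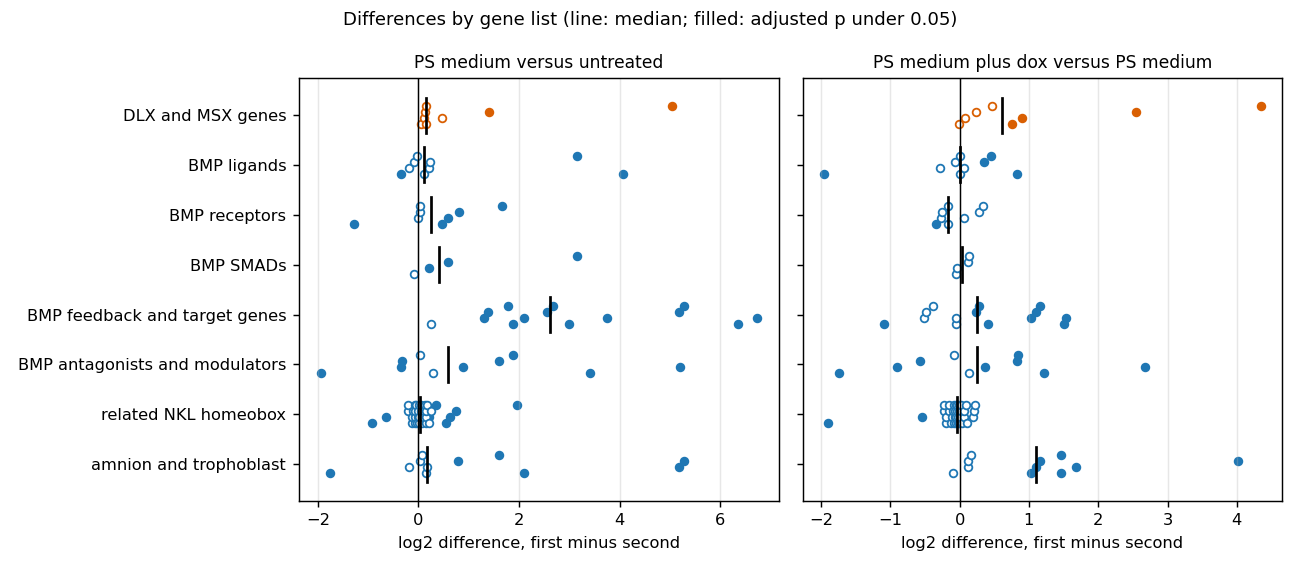
Log2 differences (first group minus second) of single genes by list, for PS medium against untreated cells and for doxycycline against PS medium; the line is the list median and filled points passed an adjusted p of 0.05. With doxycycline the DLX and MSX median is 0.61 and the related NKL homeobox median -0.04.

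DLX and MSX genes are used by several cell types, and markers of these were measured beside them. Of 11 amnion and trophoblast markers measured, 7 rose with doxycycline against PS medium and 0 fell by limma (0 unadjusted). ISL1, a LIM homeobox factor of amnion and heart progenitors, rose by 4.01 ± 0.19, TFAP2C by 1.47 ± 0.19 and VTCN1 by 1.46 ± 0.31. KRT7, a keratin, rose by 1.68 ± 0.35 over PS medium after a fall of that gene in PS medium (-1.75 ± 0.35, adjusted p = 0.00289). It read 301 to 414 on untreated arrays, 87.5 to 91.9 in PS medium, and 252, 190 and 699 with doxycycline, and its difference with doxycycline against untreated cells was -0.07 ± 0.35 (adjusted p = 0.911). The summed intensity of the 11 genes was 2198 to 2482 on untreated arrays, 13603 to 15916 in PS medium and 30969 to 33601 with doxycycline. In PS medium and with doxycycline most of that sum came from TFAP2A, GATA2 and GATA3, which also stand in the BMP target list. The other 8 genes summed to 1485 to 1706, 1808 to 2158 and 4988 to 7966. No value of the list was under 1 on any array (0 values). The trophoblast hormone subunit CGA (adjusted p = 0.595) and GCM1, a placental factor (0.530), did not pass. Neither did PSG4 (mean log2 6.94 with doxycycline, 6.81 in PS medium) or HSD3B1 (7.93 and 8.03). CGA, GCM1, PSG4 and HSD3B1 were the 4 of 11 that did not pass. The part of the 11 markers in the DLX and MSX results was not tested.

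Of 7 surface ectoderm and neural plate border genes, 2 rose and 0 fell with doxycycline by limma (2 and 1 unadjusted), GRHL3, a grainyhead factor, by 3.03 ± 0.21 and EYA1 by 0.35. The EYA1 call was lost with median centring (adjusted p = 0.0532), in a fit of those groups alone (0.0903) and when any 1 of 7 of the 9 arrays was left out (0.0542 to 0.123). The summed intensity of the 7 genes was 995 to 1079 on untreated arrays, 1193 to 1232 in PS medium and 2253 to 3461 with doxycycline. GRHL3 made up the increase with doxycycline, as the other 6 genes summed to 821 to 872, 965 to 1019 and 914 to 978. Neural crest genes went both ways with doxycycline, with 2 higher and 2 lower of 6, ERBB3, a receptor kinase, at 1.08 and SNAI2, a repressor of epithelial genes, at -1.27. The SNAI2 call was lost without PS replicate 3 (-1.04, adjusted p = 0.0586) and in a fit of those groups alone (0.0540). Of 5 forebrain interneuron genes, GAD1, which makes GABA, fell by 1.05 with doxycycline after a rise of 3.61 in PS medium (2.64 with an offset of 64), and 0 rose with doxycycline (0 unadjusted). Osteoblast and branchial arch genes passed in 0 of 6 cases with doxycycline by limma (0 unadjusted).

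The genes with the most similar pattern to each member that rose with doxycycline were found by Pearson r over the 9 arrays, among 1567 genes whose group means spanned at least 1 on the log2 scale. For DLX3 they were CYP24A1, which inactivates vitamin D (r = 0.996), PDGFC, a growth factor (0.995), and GRHL3 (0.995). For DLX5 they were ACTC1, cardiac actin (0.996), UBE2J1, a ubiquitin-conjugating enzyme (0.995), and SCARA3 (0.995). For MSX2 they were DIO3, a thyroid hormone deiodinase (0.997), WLS, which carries Wnt ligands to the cell surface (0.997), and GATA3 (0.996). For DLX6 they were CEMIP2 (0.988), CITED2, a transcriptional co-regulator (0.977), and MCHR1 (0.976). DLX5 correlated with DLX3 at 0.976 and with DLX6 at 0.959, and with MSX2 at 0.781. The arrays fall into 3 groups, so these values describe the group pattern and carry no test.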

How the data were processed

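The deposited table holds linear probe set intensity, made with PLIER 2.0 in Affymetrix Expression Console 1.1.1 per the submitters' processing notes. How background was corrected and arrays were normalized is not given in the sources used here. Of 33297 probe sets, 19460 had 1 gene symbol, and the brightest of each gene was kept (18417 genes). Values became log2(value + 16), so that a fold understates the change of dim genes. Array medians spanned 0.103 on the log2 scale, over the limit of 0.1, and arrays were quantile-normalized. The 9 arrays were fitted together with limma 3.58.1 (R 4.3.3; lmFit, then eBayes with trend; 6 residual degrees of freedom). Files were read with fread (data.table package, version 1.17.8), promoters with pandas 2.3.3 under Python 3.11.15, and plots drawn with matplotlib 3.10.9.

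The procedure was checked on simulated arrays with known changes and recovered most changed genes. The changed genes were a small part of all genes, drawn only from those above the median level of untreated cells. Recovery was therefore not checked for genes as dim as most members in untreated cells. Where all changes made in those test arrays ran upwards, quantile normalization shifted unchanged genes and the share of false calls rose well above the threshold aimed at, less so when changes ran both ways. Without normalization it stayed near the threshold. Calls close to the threshold are therefore less sure than their adjusted p states, and fits on values as deposited are an alternative.

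Named genes were the 8 members, TCF7L1, up to 4 genes of each of 14 lists with the largest differences past the threshold, defining markers, and the 3 genes most correlated with each member that passed with doxycycline. SMAD6 and CYTL1 were named outside this rule. Members, lists and motifs were chosen with earlier results of these data known. Same-numbered arrays deviated together (r over genes 0.245, 0.428 and 0.246) between doxycycline and PS medium, and 0.246, 0.309 and 0.297 between doxycycline and untreated cells, and were taken as paired there from the data, not from the labels. Such pairing also pairs same-numbered PS and untreated arrays. The main fit left pairing out, and the replicate block is the alternative that uses it. Alternatives were other offsets, values as deposited, median centring, a filter on the dimmest 25% of genes, all probe sets, 2 groups alone, the replicate block and leaving out each array.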

Additional observations from a re-analysis of the deposited data

How the results depend on the processing

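Over 17 alternatives the 4 members that rose with doxycycline against PS medium (DLX5, DLX3, MSX2 and DLX6) kept direction and call, as did DLX5 and MSX2 in PS medium against untreated cells. On values as deposited the DLX5 rise with doxycycline was 20.3-fold and the DLX3 rise 5.92-fold. Of 405 values of single members under an alternative, 390 kept direction and side of the threshold, 8 newly passed, 2 no longer passed and 5 changed sign. With 1 array left out, MSX1 in PS medium against untreated cells ran from -0.0048 to 0.0935 and DLX1 with doxycycline against PS medium from -0.0890 to 0.0572. The sign changes lay in these ranges, in differences that did not pass: MSX1 in PS medium against untreated cells without untreated replicate 2 (-0.0048), and DLX1 with doxycycline against PS medium without PS replicate 1 (0.017) or 2 (0.057), or doxycycline replicate 1 (0.010) or 3 (0.012). The count of related NKL homeobox genes with doxycycline against PS medium was 2. It was 1 in a fit of those 2 groups alone, 3 with the replicate block or without the dimmest 25% of genes, and ran from 0 to 2 with 1 array left out. The cause was not tested. With the replicate number as a block, 5 members passed with doxycycline against PS medium in place of 4, MSX1 being added (0.24, adjusted p = 0.0332). DLX2 also passed with the block in PS medium against untreated cells (0.46, adjusted p = 0.0371). Same-numbered arrays of PS medium and untreated cells correlated at 0.086, 0.397 and 0.271. Pairing of doxycycline arrays by number with both groups pairs these arrays as well. No other call of a member changed with the block. Dim values limit DLX2, DLX3, DLX5 and MSX2 in untreated cells, and DLX2 and DLX3 in PS medium as well. DLX2 had 16 alternatives, as the filter on the dimmest 25% of genes removed it. The folds of these genes move with the offset.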
